A study of Mus musculus with 9 samples.

Results

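Postmitotic CD8+ T cells recovered from mice with graft-versus-host disease were compared with naive CD8+ T cells that had been sorted by the same surface markers. The comparison used 6 of the 9 arrays of the series, 3 for each population, chosen by their labels, and the probe sets that name 1 gene, which are 21259 of 22690. Where a gene had several probe sets, the probe set with the highest mean of the 9 arrays was used, which left 13152 genes. The 3 naive samples were CD44-lo/CD62L-hi/CD8+ cells of normal female C3H.SW mice, 2 mice pooled for each. For each of the 3 postmitotic samples, cells of that phenotype from female C3H.SW donors had been given, with T cell-depleted bone marrow, to 4 male B6/SJL mice irradiated with 10 Gy. CD44-lo/CD62L-hi/CD8+ cells were sorted from the pooled recipients on day 14. The remaining 3 arrays held CD44-hi/CD62L-lo/CD8+ cells, here called effector cells, from recipients prepared in the same way. RNA (600 ng) of each sample was amplified in a pair of rounds, each of reverse and then in vitro transcription, and hybridised to Affymetrix Mouse430A 2.0 arrays. Neither population carried a transgene or a deletion, the labels name no gate between donor and recipient cells, and transplantation, irradiated surroundings, male recipients and time cannot be told apart as sources of a difference.

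In graft-versus-host disease donor T cells recognise the tissues of the recipient, divide and become effector cells that kill through cytotoxic granules and cytokines. A naive CD8+ T cell is kept small and resting by transcription factors that hold genes for growth and killing silent, and it circulates through lymph nodes by means of CCR7 and adhesion receptors. Interferons, made during inflammation and infection, act through receptors and STAT proteins on regulatory DNA near the promoters of a large set of genes, many of them antiviral. The name postmitotic is that of the labels.

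The values are the log2 signals deposited by the authors, on which zero signal corresponds to 6.64 and the lowest possible value is 5.64. Differences are postmitotic minus naive means on that scale, and a fold is the antilog of such a difference, which understates the change of a dim gene. Called means an adjusted p under 0.05 in limma, fitted to all 9 arrays with Benjamini-Hochberg adjustment over the 13152 genes. Unless a sentence says otherwise, each gene described as risen or fallen kept its call with any 1 of the 9 arrays left out and in every other alternative that gave it a value. Values are given for replicates 1, 2 and 3 in that order. In a sorted bulk sample, fewer cells of a type and less RNA per cell cannot be told apart.

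The sort marker gene Cd44 and the T cell identity genes were not called between the populations. Cd44 lay between 6.94 and 7.59 on the naive and between 6.87 and 7.60 on the postmitotic arrays. None of 8 CD8 T cell identity genes, among them Cd8b1 and the CD3 chains, was called (Cd8b1 0.35, adjusted p = 0.0576). The log2 of their summed signal, in which bright genes weigh most, lay at 16.04 to 16.07 in naive and 15.99 to 16.08 in postmitotic cells. Arrays correlated across genes at 0.976 to 0.979 among naive samples, 0.976 to 0.981 among postmitotic samples and 0.961 to 0.970 between the 2 groups. Postmitotic replicate 3 carried Y-linked signal, although the donors were female and the recipients male: Eif2s3y, a Y-linked translation factor gene, read 11.47 there, against 6.78 and 6.70 on the other postmitotic and 7.02, 6.67 and 6.98 on the naive arrays. Effector replicate 3 carried such signal too, at 9.50. The 3' signal of the transferrin receptor control exceeded its 5' signal by log2 1.07 to 1.75 on postmitotic and 0.38 to 0.54 on naive arrays, against 1.35 to 1.48 and 1.28 to 1.87 for actin, and 2.89 to 2.96 and 2.99 to 3.12 for Gapdh. Tfrc, the gene of the transferrin receptor control, was itself called higher in postmitotic cells (0.90, adjusted p = 0.0111), though not with only the 6 arrays compared (0.0529). The part of recipient cells or of RNA quality in the differences below was not tested. Several counts below are also given without postmitotic replicate 3 and effector replicate 3 together, here the Y-signal arrays.

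Despite the shared surface phenotype, 1556 of 13152 genes were called, or 11.8%, with 806 higher in postmitotic cells (6.13%) and 750 lower (5.7%). Rises were larger than falls. A difference of at least 2-fold was seen for 188 called genes that rose (1.43%) and 77 that fell (0.585%), one of at least 4-fold for 35 and 1, and one of at least 8-fold for 9 and 0. The median called rise was log2 0.67 and the median called fall -0.58, and the median difference of all genes was -0.01. The arrays of the 2 groups did not overlap for 3853 genes (29.3%), and 3482 genes had an unadjusted p under 0.05. The number called was 849 when naive replicate 3 was left out, 901 when postmitotic replicate 2 was, 1032 when effector replicate 3 was, and 575 with the effector arrays out of the fit altogether.

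**Figure D1:**
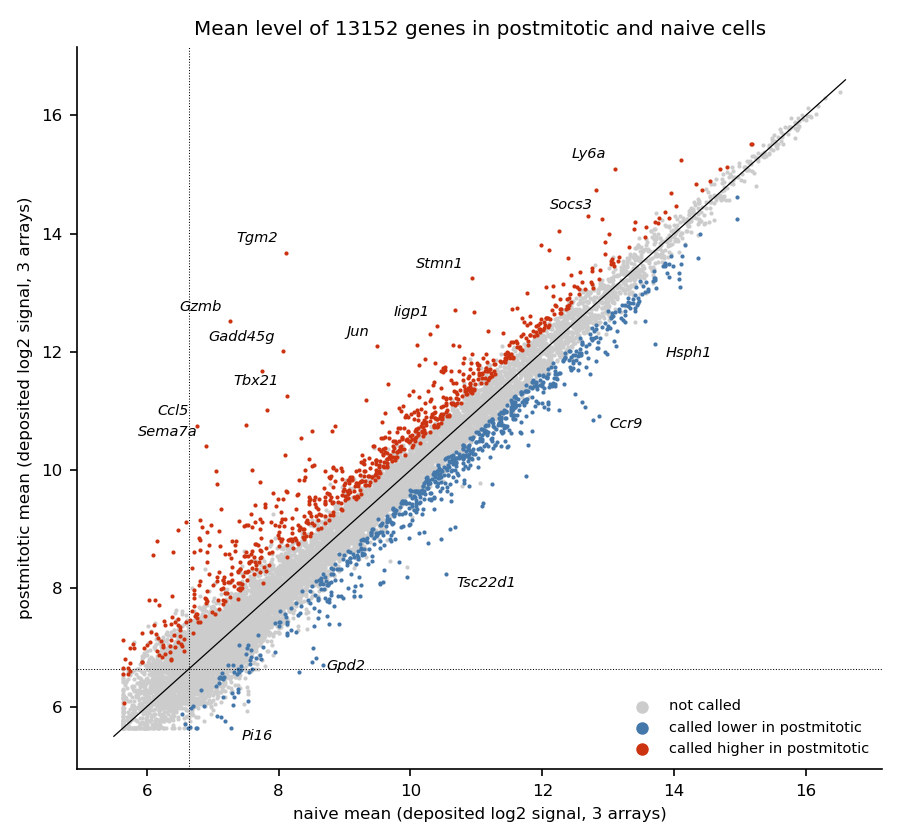
Mean deposited log2 signal of each of the 13152 genes over the 3 naive arrays (horizontal axis) and over the 3 postmitotic arrays (vertical axis), with the 806 genes called higher in red and the 750 called lower in blue. Dotted lines mark zero signal (6.64); the red points reach farther from the diagonal than the blue ones, with Tgm2 and Gzmb the farthest.

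The gene with the largest rise was Tgm2, which encodes tissue transglutaminase, an enzyme that cross-links proteins. Tgm2 read 8.22, 8.08 and 8.04 on the naive and 13.81, 13.59 and 13.64 on the postmitotic arrays, a rise of 5.57 (SE 0.28, adjusted p = 8.55e-05), or 47.4-fold. All 3 postmitotic arrays lay within 0.22 of each other and more than 5 log2 units above every naive array. The 6 probe sets of Tgm2 gave differences between 0.42 and 5.76, so the size depends on the probe set.

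The other large rises were of genes with varied functions. Gzmb, the granzyme B protease of cytotoxic granules, went from 7.30, 7.22 and 7.26 to 12.08, 12.36 and 13.13, and Ccl5, the chemokine RANTES, from 6.54, 8.11 and 5.64 to 11.01, 11.09 and 10.16. Ccl5 thus rose by 3.99 from a naive group that straddled zero signal and spread over more than 2 log2 units. Gadd45g, a stress-induced gene of the Gadd45 growth arrest family, went from 7.58, 8.24 and 8.39 to 11.83, 12.11 and 12.08, a 15.3-fold rise (adjusted p = 0.000139). Serpina3g, a serine protease inhibitor of activated T cells, rose by 3.92 and Sema7a, a membrane-anchored semaphorin, by 3.49, although the second probe set of Sema7a differed by -0.33. Tspan4, a tetraspanin, and Aqp9, a channel for water and glycerol, rose by 2.65 and 2.53 from naive means below zero signal, to 8.58, 8.95 and 8.88 and to 9.10, 9.38 and 8.88. The other probe set of Aqp9 differed by -0.18, and Tcte3, a dynein light chain gene, rose by 2.51 from a naive mean below zero signal.

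**Figure D2:**
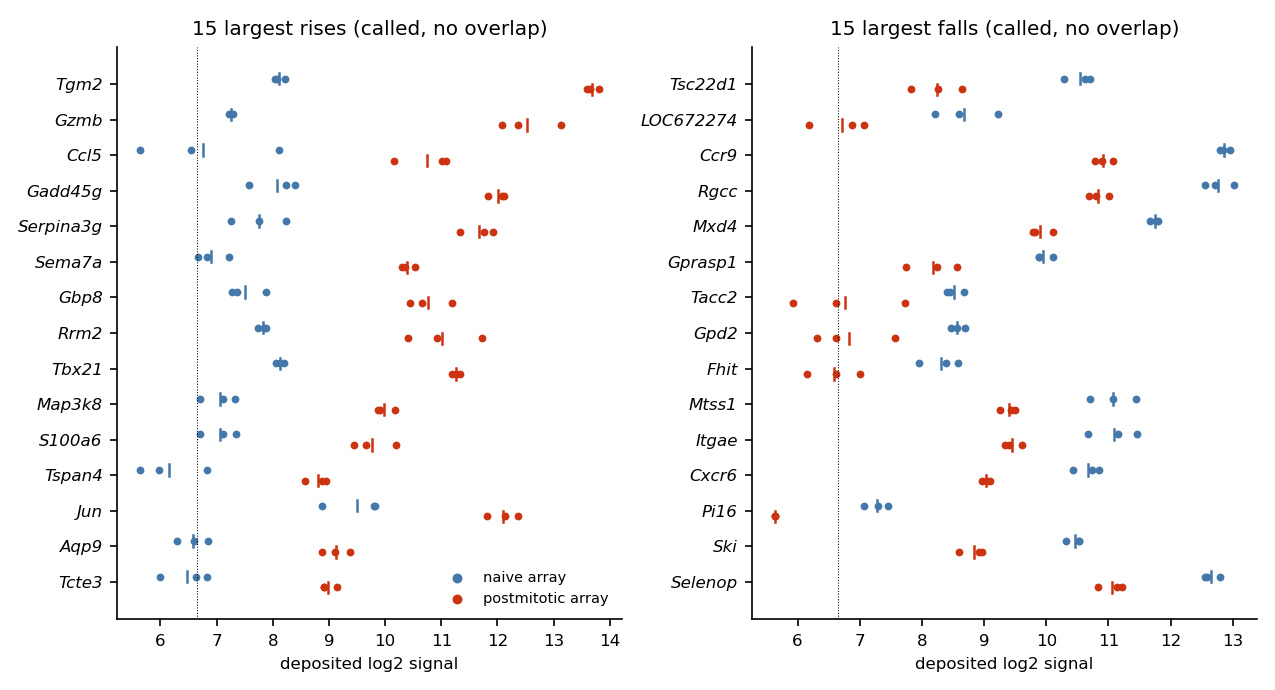
Deposited log2 signal (horizontal axes) of the 15 genes with the largest rise and the 15 with the largest fall among called genes whose arrays did not overlap; each point is 1 array, short bars are the means of 3 arrays and the dotted line is zero signal (6.64). The postmitotic points of Tgm2 lie between 13.59 and 13.81, and those of Pi16 all lie on the lowest possible value, 5.64.

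Falls were led by Tsc22d1, a leucine zipper regulator named for its induction by TGF-beta. It read 10.28, 10.71 and 10.62 on the naive and 8.65, 8.25 and 7.82 on the postmitotic arrays, a fall of 2.29 (SE 0.22, adjusted p = 0.000915), the only fall of at least 4-fold. Ccr9, the chemokine receptor that directs T cells to the small intestine, fell from 12.95, 12.85 and 12.79 to 11.08, 10.89 and 10.78, or 3.86-fold. Rgcc, a regulator of the cell cycle first described as a complement response gene, fell from 13.02, 12.55 and 12.72 to 11.01, 10.69 and 10.80. Neither gene had a postmitotic array within 1 log2 unit of a naive one. Gpd2, the mitochondrial glycerol phosphate dehydrogenase, fell from 8.46, 8.69 and 8.56 to 6.61, 7.56 and 6.31, near zero signal. Fhit, a dinucleotide hydrolase gene at a fragile chromosomal site, fell by 1.72, and Mtss1, which binds actin and bends membranes, by 1.69. Gprasp1, which sorts G protein-coupled receptors to lysosomes, fell by 1.77, and Selenop, which encodes selenoprotein P, a carrier of selenium, by 1.59 from 12.80, 12.59 and 12.56. LOC672274, a deposited symbol without a match in the RefSeq table, fell by 1.96. Pi16, a peptidase inhibitor gene, fell from 7.07, 7.30 and 7.46 to the lowest possible value, 5.64, on all 3 arrays. Its second probe set differed by 0.34, and the mean of both was not called (-0.65, adjusted p = 0.0624). Tacc2, a centrosome gene among the 15 largest falls (-1.75), was not called without any 1 naive array (adjusted p = 0.055, 0.0781 and 0.0713), effector replicate 3 (0.0501) or postmitotic replicate 3 (0.0749).

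The called genes were then read by function. Each count below stands beside the shares over all genes, 6.13% higher and 5.7% lower, and beside the median difference of all genes, -0.01.

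**Figure D3:**
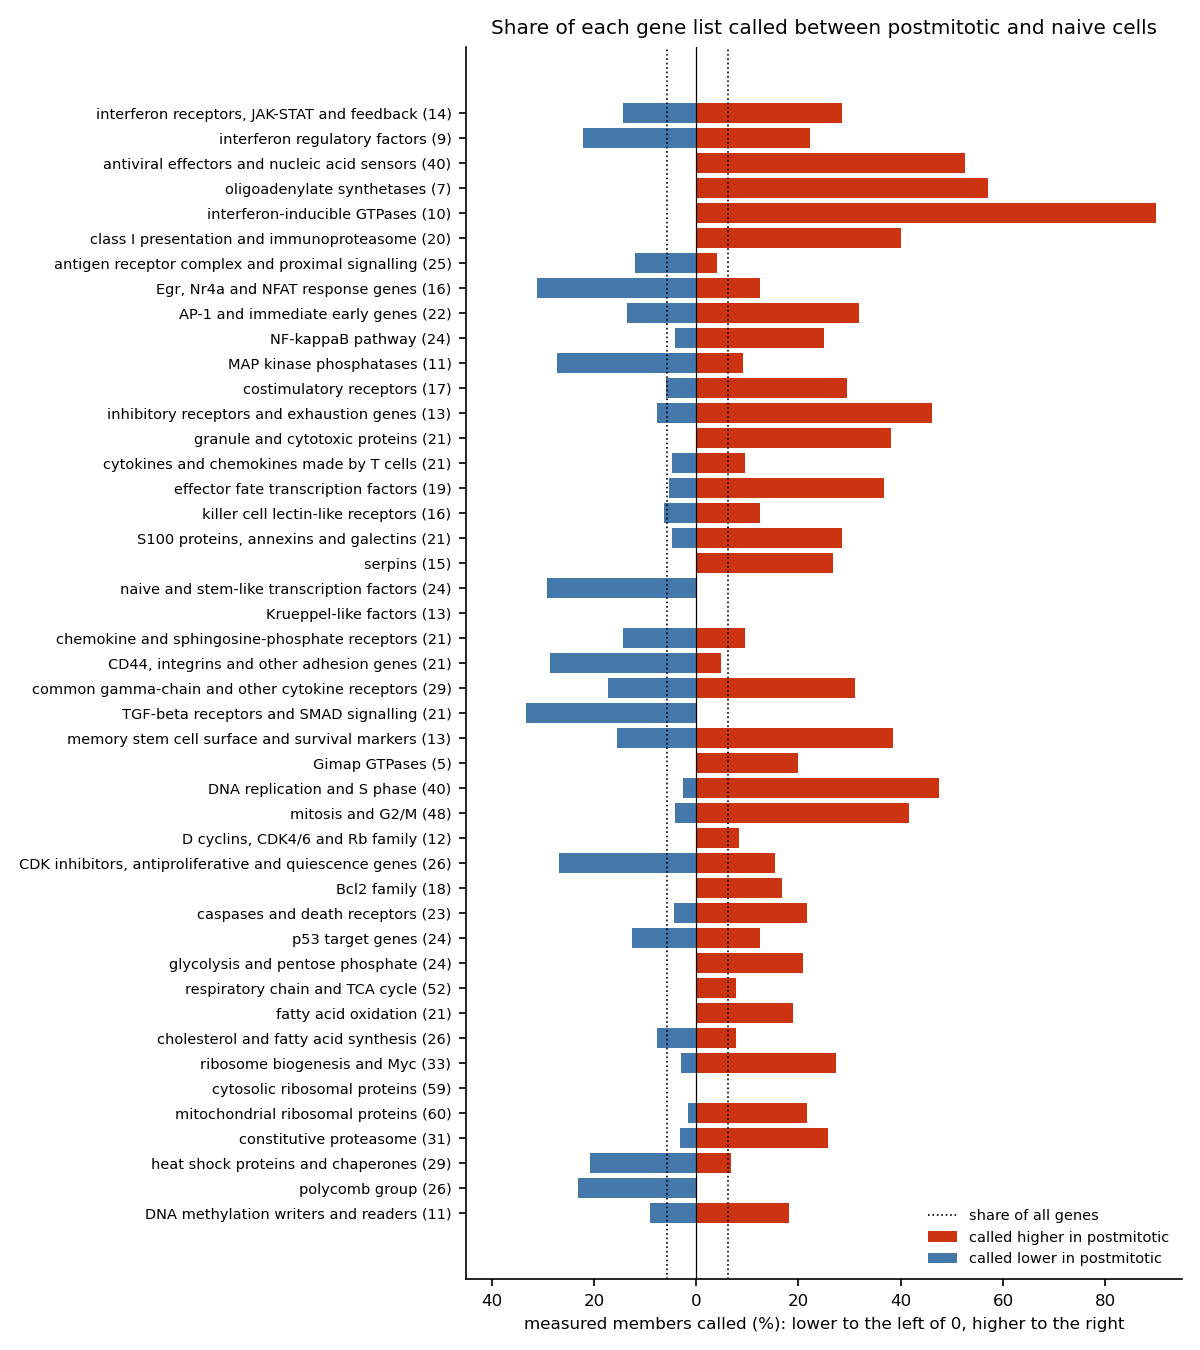
Percentage of the measured members of each gene list (number in brackets) called lower (blue, left of 0) or higher (red, right of 0) in postmitotic cells, with the shares over all 13152 genes as dotted lines (5.7% and 6.13%). Interferon-inducible GTPases reach 90% higher, and cytosolic ribosomal proteins and Krüppel-like factors have no member called.

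Many interferon target genes rose. Of 40 antiviral effectors and nucleic acid sensors measured, 21 were called higher (52.5%) and none lower, with a median difference of 0.57. Of 10 interferon-inducible GTPases, which attack the vacuoles of intracellular pathogens, 9 rose and none fell (median 0.87), and of 7 oligoadenylate synthetases, which sense double-stranded RNA, 4 rose and none fell (median 0.77). The medians of the 3 lists over the naive mean were 0.66, 0.69 and 0.48, then 0.79, 1.04 and 0.76, then 0.73, 0.90 and 0.67 on postmitotic replicates 1, 2 and 3. On the naive arrays the same medians lay between -0.10 and 0.15. Leaving out 1 array gave 16 to 21, 9, and 3 or 4 members called higher in these lists, and without the Y-signal arrays 17, 8 and 3 were called.

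The called rises of these genes lay between 0.50 (Oas1c) and 3.26 (Gbp8). The call of Oas1c was lost when any array but naive replicate 3 or postmitotic replicate 3 was left out. Gbp8, a guanylate-binding protein, went from 7.87, 7.28 and 7.37 to 10.65, 11.19 and 10.45 (SE of the difference 0.24, adjusted p = 0.000368). Iigp1, an immunity-related GTPase, went from 10.61, 10.17 and 10.44 to 12.32, 12.64 and 12.33. No postmitotic array of Iigp1 lay within 1.7 log2 units of a naive one. Ifit3, which binds foreign RNA, rose 3.25-fold from 10.82, 10.99 and 11.11 to 12.70, 12.76 and 12.55. Usp18, the protease that removes ISG15 and restrains the type I interferon receptor, rose 3.15-fold from 10.14, 9.99 and 10.25 to 11.76, 11.94 and 11.64. Oas1a, an oligoadenylate synthetase, went from 9.99, 9.26 and 9.73 to 11.36, 11.72 and 11.29. Each of these genes was higher on all 3 postmitotic arrays than on any naive array. Isg20, an exonuclease of single-stranded RNA, rose by 1.45, Rsad2, which encodes viperin, by 1.49 and Dhx58, a sensor related to RIG-I, by 1.56, and the further probe sets of Rsad2 and Dhx58 went down to 0.13 and -0.25. Oas3 (1.45), Oasl2 (1.30), Ifi44 (1.24), Gbp3 (1.19), Gbp2b (0.94) and Irgm1 (0.80) also rose. Other members of the lists were not called: Trim21 differed by 0.06, the RNA editing enzyme gene Adar by 0.13 and Eif2ak2, the RNA-dependent kinase PKR, by 0.28. Near-identical members of the GTPase and synthetase families can bind each other's probes.

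**Figure D4:**
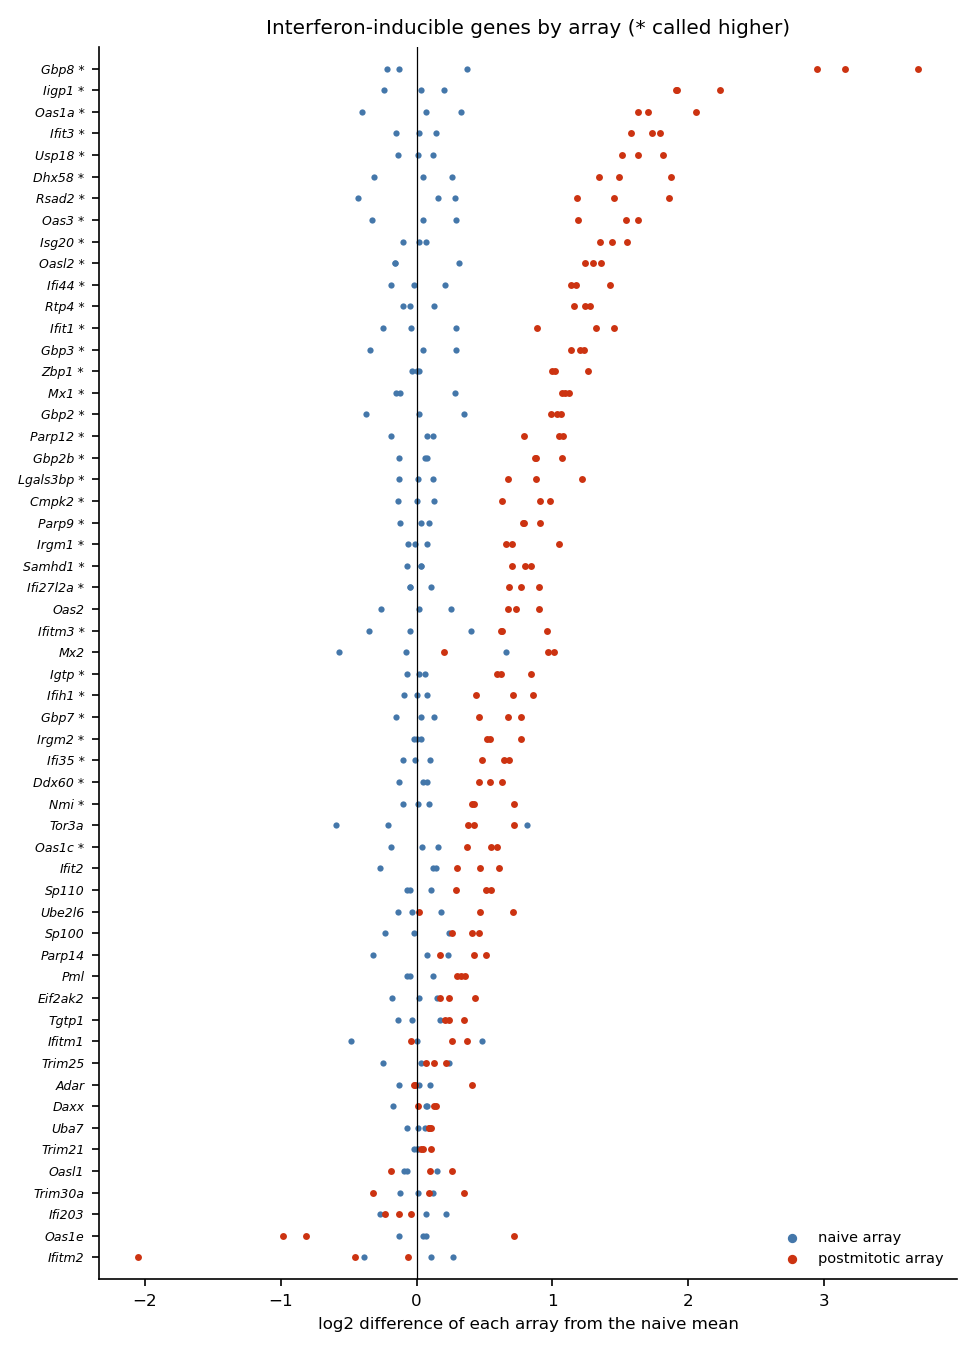
Difference of each naive (blue) and postmitotic (red) array from the naive mean, in log2 units (horizontal axis), for measured antiviral, oligoadenylate synthetase and interferon-inducible GTPase genes, in order of their mean difference; an asterisk marks genes called higher. The postmitotic points of Gbp8 lie about 3 units to the right of the naive mean, and the genes with the lowest differences are Ifitm2 (-0.85) and Oas1e (-0.35).

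Promoters of these genes were searched in RefSeq sequence (GRCm38.p6, 250 bases before each start) for the core of the interferon-stimulated response element, a site of type I interferon responses, which is GAAA, any 2 bases and GAAA again, on either strand. The 60 bases around the match nearest the start are shown for the 8 members called higher with the largest differences among those holding one, 5′ to 3′ on the strand of the gene, with matches in capitals (a match on the other strand reads TTTC, any 2 bases, TTTC).
Oas1a (chr5:120907526-120907585, minus strand): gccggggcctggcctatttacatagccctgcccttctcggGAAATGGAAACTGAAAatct
Oas3 (chr5:120777700-120777759, minus strand): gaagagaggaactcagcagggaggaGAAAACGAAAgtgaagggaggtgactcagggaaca
Ifit3 (chr19:34583382-34583441, plus strand): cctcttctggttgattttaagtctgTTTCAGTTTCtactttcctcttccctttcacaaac
Rsad2 (chr12:26456538-26456597, minus strand): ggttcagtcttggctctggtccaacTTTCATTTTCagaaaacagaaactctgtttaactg
Ifit1 (chr19:34640779-34640838, plus strand): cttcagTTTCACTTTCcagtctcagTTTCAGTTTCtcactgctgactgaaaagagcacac
Gbp3 (chr3:142559980-142560039, plus strand): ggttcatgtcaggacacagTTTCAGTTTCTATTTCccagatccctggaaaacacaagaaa
Gbp2 (chr3:142620579-142620638, plus strand): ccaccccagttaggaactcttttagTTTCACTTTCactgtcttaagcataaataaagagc
Gbp2b (chr3:142594685-142594744, plus strand): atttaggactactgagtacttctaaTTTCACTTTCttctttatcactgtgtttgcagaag

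The Oas1a window holds a pair of overlapping matches within 20 bases of the gene's start, the Gbp3 window an overlapping pair as well, and the Ifit1 window a pair apart from each other. Ifit1, a relative of Ifit3, rose by 1.22 and Gbp2, another guanylate-binding protein, by 1.03, the latter not called without the Y-signal arrays. Over the 3 lists above and the class I presentation list, 20 of the 59 measured members with a promoter in the table held the core (33.9%), against 333 of 10046 tested genes (3.31%). The share was 14 of 32 among members called higher (43.8%) and 6 of 27 among members not called (22.2%). The gamma-activated site, an element of interferon gamma responses, spelled TTCNNNGAA, stood in 11 of 59 (18.6%) and in 734 of 10046 (7.31%), with 7 of 32 among those called higher and 4 of 27 among those not called. Oasl2 and Ifi44 rose with neither motif in their window, which says only that these letters are not there, and a match is no evidence of binding.

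Genes upstream of these targets changed less evenly. Of 14 interferon receptor, JAK-STAT and feedback genes 4 rose and 2 fell, with a median of 0.02. Socs3, an inhibitor of JAK kinases induced by several cytokines, rose 2.54-fold from 12.93, 12.80 and 12.97 to 14.34, 14.10 and 14.29, and its 3 probe sets differed by 1.32 to 1.40. Ifnar2, a chain of the type I interferon receptor, rose by 0.95. The count of rises was 2 without naive replicate 3 or postmitotic replicate 3, and the falls of Ifngr2 and Jak1 were both lost when postmitotic replicate 1, effector replicate 3 or naive replicate 2 or 3 was left out, and 1 of them when naive replicate 1 or postmitotic replicate 2 or 3 was. Of 9 interferon regulatory factors 2 rose and 2 fell. Irf7, which amplifies type I interferon responses, went from 9.70, 9.68 and 9.63 to 10.45, 10.60 and 10.59. Irf8 rose by 0.97, and 1 of the falls was lost when any array but naive replicate 2 was left out. Irf1 (0.22), Irf3 (-0.23) and Irf5 (-0.01) were not called.

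In class I presentation the calls lay in the proteasome and in peptide loading and trimming. Of 20 genes 8 were called higher and none lower, with a median of 0.19. Psmb10, a catalytic subunit that interferon gamma exchanges into the immunoproteasome, rose 1.63-fold from naive values of 12.82 to 13.03 to 13.57, 13.75 and 13.65. The class I heavy chains H2-K1 and H2-D1 differed by -0.04 and -0.05, and B2m, the light chain, by 0.11, with no call. The other called members, Tapbpl, Psmb8, Erap1, Psmb9, Psme2, Pdia3 and Psme1, differed by 0.39 to 0.59 and lost their calls in the fit of only the 6 arrays compared (adjusted p 0.0541 to 0.0989). The count of rises was 3 without naive replicate 3 or postmitotic replicate 2, 5 without effector replicate 3 or postmitotic replicate 1, and 1 with only the 6 arrays compared.

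Genes that answer the antigen receptor did not move as one group. Egr1, Egr2 and Nab2, transcription factors and a corepressor induced by receptor signalling, fell, while Jun and Fos, the founding AP-1 subunits, rose. Jun went from 9.80, 8.87 and 9.82 to 12.36, 12.13 and 11.82, a rise of 2.61 (SE 0.29, adjusted p = 0.00183), and Fos from 10.36, 10.12 and 10.42 to 12.58, 12.36 and 11.99, or 4.02-fold. Egr1 fell by 0.77 and Egr2 went down from 10.89, 11.21 and 10.95 to 10.12, 9.92 and 10.13. Postmitotic arrays thus lay above all naive arrays for Jun and Fos and below all of them for Egr1 and Egr2. Nab2 fell by 1.19 and Nr4a1, the orphan nuclear receptor NUR77, differed by 0.17 (adjusted p = 0.642). Of 16 Egr, Nr4a and NFAT response genes 2 rose and 5 fell (median -0.31). Leaving out replicate 2 or 3 of any group gave 3 falls, and leaving out any naive array, effector replicate 2 or postmitotic replicate 2 or 3 gave 1 rise. The antigen receptor complex and its proximal kinases had 1 of 25 genes higher and 3 lower (median -0.07). That rise was lost with any 1 array left out, and 1 fall or none remained without naive replicate 2 or 3 or postmitotic replicate 1 or 2.

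Of 22 AP-1 and immediate early genes 7 rose and 3 fell (median 0.13), with 3 rises left without postmitotic replicate 1 and 4 without postmitotic replicate 2. Leaving out any 1 array gave at most 6 rises, and 2 or 3 falls. Beside Jun and Fos, Ier3, an early stress-response gene, went from 7.49, 7.98 and 7.92 to 9.30, 9.49 and 9.52. Btg2, an antiproliferative early gene, fell from 11.92, 11.80 and 11.83 to 10.66, 10.61 and 10.70. Fosb (0.13), Jund (0.04) and Atf3 (0.13) were not called, and Junb, at 0.99, was not called when naive replicate 3 (adjusted p = 0.0611), effector replicate 3 (0.0531) or any postmitotic replicate (0.0722, 0.0782 and 0.0673) was left out. In the NF-kappaB pathway 6 of 24 genes rose and 1 fell (median 0.01). Map3k8, a kinase that feeds both NF-kappaB and ERK signalling, went from 7.12, 6.71 and 7.33 to 9.91, 10.18 and 9.87, and Bcl3, a nuclear IkappaB-like protein, from 8.66, 8.76 and 9.01 to 10.52, 10.63 and 10.82. Nfkbiz, another nuclear member, rose by 1.22 and Tnip1, an inhibitor of the pathway, fell by 0.76. Nfkb1 (-0.27), Rela (-0.18) and Nfkbia (0.02), the pathway's central subunits and inhibitor, were not called. Of the 6 rises 3 remained without naive replicate 3, any effector array or postmitotic replicate 2 or 3.

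Part of the effector gene lists rose. Of 21 granule and cytotoxic genes 8 rose and none fell (median 0.33), of 19 effector transcription factors 7 rose and 1 fell (median 0.06), and of 13 inhibitory receptor genes 6 rose and 1 fell (median 0.21). Tbx21, which encodes T-bet, had the smallest SE of the 15 largest rises, going from 8.12, 8.20 and 8.06 to 11.33, 11.26 and 11.19 (SE 0.10, adjusted p = 1.11e-05). Its effector mean was 12.55. Gzmb, at 12.08 to 13.13, stayed below its effector mean of 15.52. Ifng, which encodes interferon gamma, went from 6.55, 7.12 and 7.05, near zero signal, to 9.15, 8.84 and 8.84, against an effector mean of 14.63. Nkg7, a granule membrane protein, rose by 0.49 from 13.84, 13.90 and 13.88. The perforin gene Prf1 differed by -0.25, the Fas ligand gene Fasl by 0.24 and Prdm1, the Blimp-1 gene, by 0.00, all without a call. The granule count was 4 without naive replicate 3 or postmitotic replicate 1 and 5 without postmitotic replicate 2. Transcription factor rises numbered 4 without naive replicate 3, where the fall of Rora was lost, as it was without postmitotic replicate 1 or 2. Inhibitory receptor rises numbered 4 or 5 with any 1 array left out, and Havcr2 (1.00) kept its call in 1 of those 9 fits. The fall, Tox (-0.75), was not called with only the 6 arrays compared (adjusted p = 0.062). The mean of the Tox probe sets was not called either (-0.43, adjusted p = 0.0752).

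Hopx, a homeodomain protein of effector and tissue-resident T cells, went from 12.10, 12.01 and 12.18 to 13.73, 13.82 and 13.61, above its effector mean of 13.07 (adjusted p = 0.00171 for postmitotic minus effector). Zbtb32, a repressor induced in activated lymphocytes, rose by 1.01 from a naive mean below zero signal. Cd160, an inhibitory receptor that binds HVEM, went from 9.06, 8.53 and 8.95 to 10.51, 10.99 and 10.75, and Ctla4, the inhibitory competitor of CD28, from 8.15, 8.31 and 8.37 to 9.59, 9.77 and 9.37. Both rose without overlap of the arrays. Cd38, an ectoenzyme, rose by 1.47 with a second probe set at 0.20, and Cd274, which encodes PD-L1, by 0.95. Lag3 differed by -0.56 (adjusted p = 0.354) and Pdcd1, the PD-1 gene, by 1.13 (adjusted p = 0.039). The call of Pdcd1 held without naive replicates 1 and 3 only, with adjusted p = 0.0623 without naive replicate 2, 0.0636, 0.0658 and 0.0689 without effector replicates 1, 2 and 3, and 0.103, 0.0738 and 0.0882 without postmitotic replicates 1, 2 and 3.

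Some S100, annexin, galectin and serpin genes of activated T cells also rose. S100a6, a calcium-binding protein, went from 7.12, 7.35 and 6.70 to 9.66, 10.20 and 9.45, and Lgals1, which encodes galectin 1, from 12.40, 12.20 and 12.16 to 14.06, 14.24 and 13.81. Anxa2, a membrane-binding annexin, rose by 1.60, with probe sets from 0.08 to 1.60. Of the 21 genes of these families 6 rose and 1 fell (median 0.26), with 3 rises left without naive replicate 3 or postmitotic replicate 1 or 2, and no fall without naive replicate 3. Of 15 serpins 4 rose and none fell (median 0.18), with 3 or 4 rises when any 1 array was left out. Serpinb9 (0.45) kept its call in 2 of those 9 fits. Serpinb1a, an inhibitor of elastase-like proteases, rose by 2.22 from 6.34, 6.48 and 6.39, all below zero signal, and Serpinb6b by 1.09. Of 21 cytokine and chemokine genes, Ifng and Ccl5 rose and Il16 fell, and 5 lay at or below zero signal in both groups. The call of Il16 was lost when postmitotic replicate 1, effector replicate 3 or naive replicate 2 or 3 was left out.

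Some regulators of the naive state fell, and others, Tcf7, Lef1, Klf2 and Id3 among them, were not called. Of 24 naive and stem-like transcription factors 7 fell (29.2%) and none rose, with a median of -0.31 and medians of -0.37, -0.31 and -0.25 on the 3 postmitotic arrays. Mxd4, a MAD protein that competes with MYC for its partner MAX, fell 3.59-fold from 11.80, 11.76 and 11.67 to 9.78, 9.82 and 10.10. Foxp1, which holds naive T cells quiescent, fell from 12.17, 12.19 and 12.22 to 11.50, 11.43 and 11.44, and its 6 probe sets differed by -0.92 to -0.53. Bcl11b, needed for T cell identity, fell by 0.59 from 12.91, 13.01 and 13.02. Myb fell by 0.83, with adjusted p = 0.0579 without the Y-signal arrays. Foxo1 was called at -0.56 (adjusted p = 0.0108), but not with the mean of its probe sets (-0.30, adjusted p = 0.0861). Its call was also lost with only the 6 arrays compared (0.0597) and without the Y-signal arrays (0.0678). Bach2 was called at -0.53 (adjusted p = 0.0154), but the mean of its probe sets was 0.05 (0.922). That call was also lost without postmitotic replicate 2 (0.0526), among other alternatives. Tcf7, the TCF-1 gene, read 13.04, 13.27 and 13.18 against 12.90, 13.06 and 13.06, a difference of -0.15 (SE 0.14, adjusted p = 0.564), and its effector mean was 10.98. Lef1 (-0.22), Klf2 (-0.27), Id3 (0.06) and Ccr7 (-0.03) were not called, and none of 13 Krüppel-like factors was called. With 1 array left out the list had 6 to 8 falls, without the Y-signal arrays 3, and with only the 6 arrays compared 4.

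TGF-beta signalling, which restrains T cell activation, had the highest share of falls among the lists. Of 21 receptors, SMAD proteins and cofactors, 7 fell (33.3%), Tsc22d1 included, and none rose (median -0.28). Ski, a SMAD corepressor, fell from 10.53, 10.31 and 10.53 to 8.97, 8.92 and 8.60. Smad7, the inhibitory SMAD, fell from 11.53, 11.53 and 11.54 to 10.59, 10.63 and 10.66, or 1.87-fold. Both encode inhibitors of the pathway. Tgfbr2, the ligand-binding receptor, fell as well, from 13.19, 13.15 and 13.02 to 12.28, 12.04 and 11.97. Tgfbr2 and Skil, a relative of Ski, lost their calls with the mean of their probe sets (-0.49, adjusted p = 0.0776, and -0.43, adjusted p = 0.164), and Smad4, the common SMAD, without the Y-signal arrays (-0.55, adjusted p = 0.0595). The count was 6 or 7 with any 1 array left out.

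Chemokine receptor genes went both ways, and the called adhesion genes mostly fell. Cxcr3, the receptor for interferon-induced chemokines, rose 4.08-fold from 10.82, 10.56 and 10.65 to 12.84, 12.70 and 12.57, while Cxcr6, a receptor of tissue-resident T cells, fell 3.11-fold from 10.43, 10.84 and 10.74 to 9.05, 9.09 and 8.97. In effector cells Cxcr6 averaged 12.23. Itgae, which encodes CD103, the integrin of epithelial T cells, fell from 10.67, 11.46 and 11.15 to 9.61, 9.33 and 9.40, as did Cd9 by 1.02 and Itga6 by 0.74. Of 21 chemokine and sphingosine-phosphate receptors 2 rose and 3 fell (median -0.01), with 2 or 3 each way when any 1 array was left out. Of 21 CD44, integrin and other adhesion genes 1 rose and 6 fell (median -0.24). The falls made up 28.6% of the adhesion list, beside 5.7% of all genes, and its medians on the 3 postmitotic arrays were -0.15, -0.28 and -0.19. That single rise, Icam1 (0.56), was lost with any naive array, effector replicate 3 or postmitotic replicate 1 or 2 left out. The falls numbered 4 to 6 with any 1 array left out and 3 with only the 6 arrays compared.

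Cytokine receptors went both ways, 9 of 29 higher and 5 lower (median 0.26), with 3 falls without naive replicate 3. Leaving out any 1 array gave 6 to 8 higher. With only the 6 arrays compared 5 were higher and 1 lower, and without the Y-signal arrays 4 were higher and 2 lower. Il12rb1 rose by 0.90 from 7.75, 7.60 and 7.54 to 8.49, 8.45 and 8.67, and Il18r1 by 0.78 from 12.26, 12.10 and 12.12 to 12.88, 12.98 and 12.97. Both encode receptors of cytokines that drive interferon gamma production. Il7r, the receptor for the survival cytokine IL-7, read 14.92, 14.98 and 14.94 against 14.30, 14.46 and 13.95 and was called at -0.71. That call was lost with only the 6 arrays compared (adjusted p = 0.06) and without the Y-signal arrays (0.058). Of 13 surface and survival markers of memory stem cells 5 rose and 2 fell (median 0.20), with 4 to 6 rises when any 1 array was left out. Ly6a, which encodes Sca-1, went from 13.14, 13.04 and 13.13 to 15.20, 15.15 and 14.96, and Ly6c1 from 14.02, 14.20 and 14.11 to 15.24, 15.27 and 15.23. Bcl2, which blocks apoptosis, rose by 0.97 from 9.85, 10.07 and 9.85 to 10.62, 10.89 and 11.18. The costimulatory receptor gene Cd28 fell by 0.98 and Tnfrsf9, which encodes 4-1BB, rose by 1.25. Of 17 costimulatory receptors 5 rose and 1 fell (median 0.21), with 1 rise left without postmitotic replicate 2 and 3 left with any other array out except naive replicate 1.

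Many genes of division rose in the cells named postmitotic. Of 40 DNA replication and S phase genes 19 rose (47.5%) and 1 fell (median 0.54), and of 48 genes of mitosis and G2/M 20 rose (41.7%) and 2 fell (median 0.65). Over the naive mean, the S phase median was 0.50, 0.42 and 0.65 and the mitosis median 0.72, 0.51 and 0.83 on postmitotic replicates 1, 2 and 3. In effector cells the same medians stood at 1.72 and 2.82. Postmitotic replicate 3, the array with Y-linked signal, was highest for both lists and replicate 2 lowest. Rises numbered 12 in the S phase list without naive replicate 3 and 14 to 18 in the mitosis list with any 1 array left out, and 9 and 12 without the Y-signal arrays. The 1 fall in the S phase list, Rpa1, was lost with any 1 array left out.

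Rrm2, the ribonucleotide reductase subunit made in S phase, went from 7.74, 7.84 and 7.87 to 10.92, 10.40 and 11.72, a rise of 3.20 (SE 0.28, adjusted p = 0.000773). Birc5, which encodes survivin of the chromosomal passenger complex, went from 7.48, 7.65 and 7.64 to 10.21, 9.59 and 10.21, and Stmn1, a microtubule destabiliser, from 10.96, 10.93 and 10.93 to 13.36, 12.82 and 13.58. On all 3 genes postmitotic replicate 2 was the lowest of its group. Tk1, thymidine kinase, was at or below zero signal on the 3 naive arrays and read 8.74, 8.15 and 8.81 on the postmitotic ones, a difference of 2.47. Top2a (2.19), which untangles DNA, Cdca5 (2.16), which keeps sister chromatids together, cyclin B2 (Ccnb2, 1.86) and the kinetochore protein gene Cenpf (1.84) rose as well, although the further probe sets of Top2a and Cenpf differed by 0.22 and 0.13. Uhrf1, which carries DNA methylation through replication, rose by 1.53 and the transcription factor E2f1 by 1.52. Smc4, a condensin subunit, fell by 0.74. The replication clamp Pcna (0.18), Mcm7 (0.04), Plk1 (0.19) and Foxm1 (-0.23) were not called.

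E2F transcription factors drive many genes of the S phase and mitosis lists. Overlapping spellings were counted once per gene. A site spelled TTTCGCGC, TTTGGCGC, TTTCCCGC or TTTGCCGC, on either strand, stood in the 250 bases before the start of 10 of the 72 measured members with a promoter (13.9%) and of 335 of 10046 tested genes (3.33%). It stood in 5 of 29 members called higher (17.2%) and 5 of 41 not called (12.2%). The windows of 3 called members are shown in the same way, chosen for their large differences.
Cdc6 (chr11:98907987-98908046, plus strand): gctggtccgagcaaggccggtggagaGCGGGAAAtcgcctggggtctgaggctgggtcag
Cdk1 (chr10:69353010-69353069, minus strand): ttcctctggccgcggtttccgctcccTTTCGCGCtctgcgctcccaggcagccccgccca
Uhrf1 (chr17:56304102-56304161, plus strand): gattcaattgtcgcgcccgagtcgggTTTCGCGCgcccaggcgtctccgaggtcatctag
Cdc6, which loads the replicative helicase, rose by 2.35 and Cdk1, the mitotic kinase, by 1.81 (adjusted p = 0.00635 and 0.00213). Without the Y-signal arrays Cdc6 had adjusted p = 0.058. Rrm2, Tk1, Birc5 and E2f1 rose without one of these spellings in their window.

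Brakes on division went both ways. Of 26 CDK inhibitors, antiproliferative and quiescence genes 4 rose and 7 fell (median 0.01). The falls numbered 5 or 6 with any 1 array left out, and that of Tob2 (-0.44) was lost each time. Rgcc, Mxd4 and Btg2, given above, and Tob1, an antiproliferative partner of BTG proteins (10.09, 10.08 and 9.77 against 8.74, 9.15 and 8.71), fell. Gadd45g and Cdkn2d, an inhibitor of CDK4 and CDK6 (0.63), rose. Cdkn1a, which encodes p21, lay near or below zero signal on all 6 arrays, at 5.64 to 6.94, and Cdkn1b, which encodes p27, differed by 0.07. Cdk4, at 0.38 (adjusted p = 0.0337), was the only call among 12 D cyclin, CDK4/6 and Rb family genes and was lost when any array but postmitotic replicate 2 was left out (adjusted p 0.0556 to 0.0911).

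Survival and death genes were called higher at larger shares than the 6.13% of all genes, in short lists. The share was 16.7% for the Bcl2 family, 21.7% for caspases and death receptors and 12.5% for p53 targets. The shares called lower were 0%, 4.35% and 12.5%, beside 5.7% of all genes. Of 18 Bcl2 family genes 3 rose and none fell (median 0.16), with 2 or 3 rises when any 1 array was left out. Bax (0.46) kept its call in 2 of those 9 fits. Beside Bcl2, its antagonist Pmaip1, which encodes NOXA, rose from 8.67, 8.65 and 8.80 to 9.79, 9.91 and 10.23. Mcl1 (0.10, but -0.39 and adjusted p = 0.0267 as a mean over 6 probe sets), Bcl2l1 (0.43) and Bcl2l11, the BIM gene (-0.33), were not called. Of 23 caspases and death receptors 5 rose and 1 fell (median 0.00). Ripk3, the kinase of necroptosis, rose from 9.61, 9.54 and 9.58 to 10.24, 10.20 and 10.35, and Casp1, the inflammasome caspase, by 1.57, without a call without the Y-signal arrays (adjusted p = 0.0548). The rises numbered 3 without postmitotic replicate 2 or 3, and the fall of Xiap was lost with any 1 array left out. Among 24 p53 targets 3 rose and 3 fell (median -0.19), and the fall of Btg2 and the rise of Pmaip1 were the largest. With any 1 array left out 2 to 4 rose and 2 or 3 fell.

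Growth and metabolism genes moved by small amounts. Of 60 mitochondrial ribosomal protein genes 13 rose and 1 fell (median 0.23), of 31 constitutive proteasome genes 8 rose and 1 fell (median 0.26), and of 33 ribosome biogenesis genes 9 rose and 1 fell (median 0.30). Their medians were positive on each postmitotic array, at 0.20 to 0.27, 0.20 to 0.41 and 0.28 to 0.31, against -0.11 to 0.09 over the naive arrays. Mrpl27 rose from 9.82, 9.89 and 9.81 to 10.68, 10.74 and 10.74, Mrps34 by 0.71 and the proteasome subunit gene Psmb7 by 0.59. These counts moved with single arrays. Mitochondrial ribosomal rises numbered 3 without postmitotic replicate 2, 5 without naive replicate 2 or 3 or effector replicate 2 or 3, 6 without effector replicate 1, 8 without postmitotic replicate 1 or 3 and 13 without naive replicate 1. Proteasome rises numbered 4 without naive replicate 3 and 5 without effector replicate 1 or 3 or postmitotic replicate 2. Ribosome biogenesis rises numbered 2 without naive replicate 3, 3 without effector replicate 2 or postmitotic replicate 2, 4 without naive replicate 1 or effector replicate 1 or 3 and 5 without naive replicate 2. The single fall of each list was lost without any effector array, naive replicate 2 or 3 or postmitotic replicate 3, among others. None of 59 cytosolic ribosomal protein genes was called by limma, and their median was 0.00.

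Glycolysis had 5 of 24 genes higher and none lower (median 0.12), respiration and the citric acid cycle 4 of 52 (median 0.17) and fatty acid oxidation 4 of 21 (median 0.10). Single arrays decided these too, with 1 glycolytic gene called without postmitotic replicate 2 and 2 without naive replicate 3, no respiratory gene without postmitotic replicate 1, 1 without naive replicate 3 or postmitotic replicate 2 and 9 without naive replicate 1, and 2 fatty acid oxidation genes without naive replicate 3 or postmitotic replicate 2. Glycolytic rises numbered 3 when any effector array or postmitotic replicate 1 or 3 was left out. Hexokinase 2, Hk2, differed by 1.01 and lost its call without postmitotic replicate 2 (adjusted p = 0.053). In lipid synthesis Elovl6, a fatty acid elongase, rose by 0.80 and Srebf2, the regulator of cholesterol synthesis, fell by 0.57.

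Several chaperone genes of the heat shock response fell. Hsph1, a HSP110 nucleotide exchange factor, fell 3.01-fold from 13.75, 13.72 and 13.67 to 12.26, 12.18 and 11.93. Dnaja1, a J-domain partner of HSP70, fell from 13.92, 14.28 and 14.05 to 13.07, 13.26 and 12.95, with a further probe set at 0.27. Hspa8 (0.02), Hsp90ab1 (0.17), Hspd1 of the mitochondria (0.06) and Hspa5 of the endoplasmic reticulum (0.09) were not called. Of 29 genes 2 rose and 6 fell (median 0.02), with 1 rise left without naive replicate 3. The falls numbered 4 to 6 with any 1 array left out, 3 with only the 6 arrays compared and 2 without the Y-signal arrays.

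Part of the polycomb group fell. Of 26 genes measured, 6 fell (23.1%), none rose and 20 were not called, with a median of -0.16 and 3 falls left without postmitotic replicate 1. Jarid2, which guides polycomb complex PRC2 to DNA, fell from 11.73, 11.65 and 11.63 to 10.54, 10.60 and 10.76, and Epc1, an enhancer of polycomb homologue, from 12.81, 13.12 and 13.01 to 11.95, 11.89 and 12.04. The PRC2 methyltransferase gene Ezh2 went the other way, from 8.87, 10.00 and 9.48 to 10.38, 10.23 and 10.48, without a call (0.92, adjusted p = 0.0521), though it was called when naive replicate 2 was left out. Suz12 (0.07) and Eed (0.09) were not called. Among 11 DNA methylation genes Uhrf1 and Hells, a remodeller of replicating DNA (0.93), rose and Dnmt3a fell. The Dnmt3a call was lost without naive replicate 3 (adjusted p = 0.0599) or postmitotic replicate 2 (0.0515) or 3 (0.0543). It was also lost with only the 6 arrays compared (0.0706) and without the Y-signal arrays (0.104). Of the 5 Dnmt3a probe sets 2 had the opposite sign, and their mean was not called (-0.35, adjusted p = 0.188).

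Some markers of other cells were called. Over the lists for B, myeloid, dendritic, erythroid, NK, CD4, thymocyte and innate-like T cells, 7 genes were called higher and 1 lower, each list with 0 to 2 rises. The share called higher was 6.67% for B cell, 3.57% for myeloid and 13.3% for erythroid markers, beside 6.13% of all genes. It was 12.5% each for NK cell, CD4 and thymocyte markers, and 0% for dendritic and innate-like T cell markers. These lists are short. Among the genes called higher were Cebpb (1.22), which activated T cells also express, and Ctla4. In the erythroid and megakaryocytic list Gata1 (1.04) and the transferrin receptor gene Tfrc (0.90) were called higher and Car2, a carbonic anhydrase gene, lower, with 1 higher and 0 lower without the Y-signal arrays. The single calls of the B cell (Cd72), NK cell (Eomes) and thymocyte (Rag2) lists were lost without 7, 5 and 6 of the 9 arrays, each left out in turn. For each list the signals above zero were also summed. The log2 of this sum, in which bright members weigh most, follows for postmitotic against naive cells. It was 11.49 to 11.63 against 11.15 to 11.33 for B cells and 11.24 to 12.62 against 11.90 to 12.25 for myeloid markers. It was 11.56 to 12.57 against 11.49 to 11.76 for dendritic and class II and 11.82 to 11.88 against 11.11 to 11.62 for erythroid markers. For NK cell markers it was 11.63 to 11.90 against 11.32 to 11.49. It was 11.74 to 11.92 against 11.69 to 11.79 for CD4 and regulatory T cells, 12.01 to 12.22 against 12.55 to 12.62 for immature thymocytes and 6.99 to 7.77 against 7.44 to 7.80 for gamma-delta and innate-like T cells. By this sum postmitotic arrays lay above all naive arrays for the B cell, erythroid and NK cell lists and below them for the thymocyte list. For the rest they overlapped. Most members did not share these shifts: the median differences of the 4 lists were 0.00, -0.11, 0.06 and 0.00. Positive differences were held by 8 of 15 B cell, 6 of 15 erythroid, 5 of 8 NK cell and 4 of 8 thymocyte markers. The markers at or below zero signal on all 6 arrays were 1 of 15 in the B cell, 1 of 28 in the myeloid (Apoe), 1 of 15 in the erythroid (Hbb-b1) and 1 of 8 in the NK cell list (Klrb1c), and none in the other lists. Postmitotic replicate 1 stood out for class II, with H2-Aa at 11.14 against 9.09 and 9.33 on the other postmitotic and 9.08, 9.35 and 9.01 on the naive arrays. The part of such cells in the results above was not tested.

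For some genes the postmitotic level did not lie between those of the other populations. Postmitotic minus effector, 3280 genes were called (24.9%), 1734 higher (13.2%) and 1546 lower (11.8%). The 2 comparisons share the postmitotic arrays, so their values are set side by side, and the 16 genes drawn were chosen after their values were seen. Tgm2 averaged 13.68 in postmitotic, 8.11 in naive and 9.33 in effector cells (4.35 above effector, adjusted p = 2.13e-05). Jun exceeded its effector mean by 3.00 (adjusted p = 0.000145), Fos by 1.49, Gadd45g by 2.50 and Map3k8 by 1.18. Iigp1 exceeded its effector mean of 9.43 by 3.00, and Socs3, at 11.76 in effector cells, by 2.49 (adjusted p = 9.1e-06). Ly6a lay 1.58 and Bcl2 1.59 above effector cells. In the other direction, Gpd2 averaged 6.83 in postmitotic, 8.57 in naive and 10.63 in effector cells, and Cd28 averaged 12.18 in effector cells (-1.95, adjusted p = 3.47e-05, postmitotic minus effector). Tsc22d1, Mxd4 and Jarid2 were lower in postmitotic than in effector cells (-1.47, -1.38 and -0.61). Hspa9, a mitochondrial chaperone (0.52 over naive), lost its call against naive cells without naive replicate 3 (adjusted p = 0.0516).

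**Figure D5:**
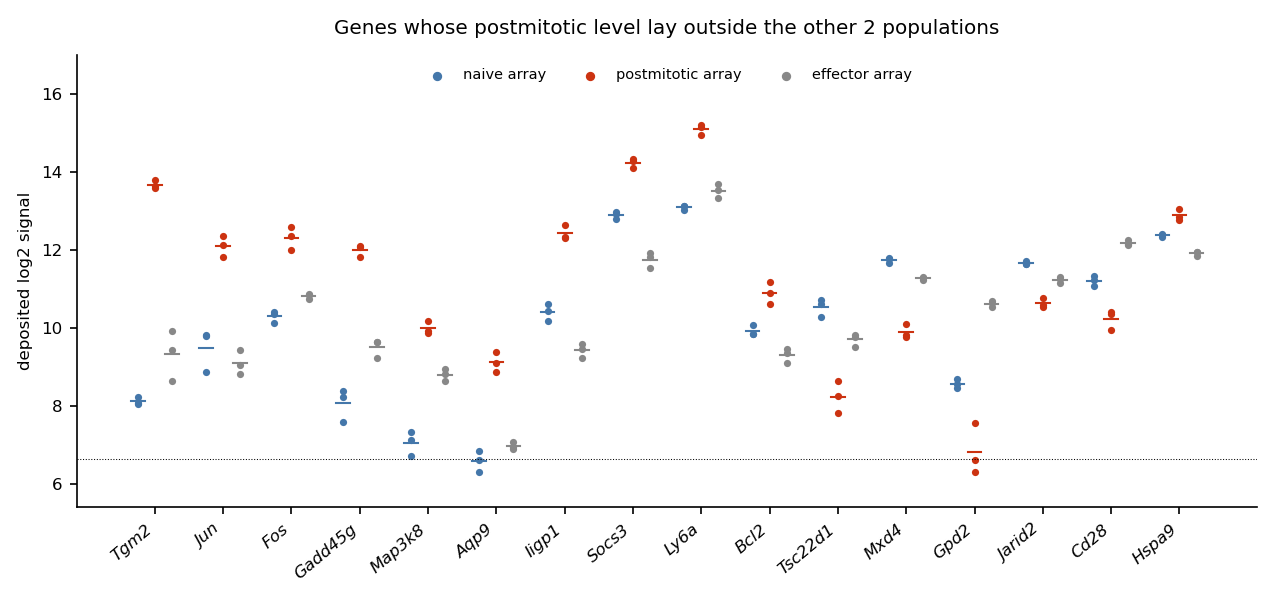
Deposited log2 signal (vertical axis) of 16 genes on each naive (blue), postmitotic (red) and effector (grey) array, with group means as bars and zero signal (6.64) as a dotted line; the genes were chosen after their values were seen. Red points lie above both other groups from Tgm2 to Bcl2 and for Hspa9, and below both from Tsc22d1 to Cd28.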

How the data were processed

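The authors deposited log2 values. Per their readme, each came from a trimmed mean over the probes of a set, quantile normalization against naive replicate 2, and offsets of 50 inside and outside a maximum with 0. The series matrix repeats them, with a largest difference of 5e-09. The authors also deposited unadjusted p-values, fold ratios and a signed score of selected probe sets (672 higher and 545 lower for postmitotic against naive, at p under 0.01 and a fold over 1.5, in the authors' deposited table). Software versions are not given in the sources used here. Symbols came from the deposited annotation, updated by Entrez number through a RefSeq table (GRCm38.p6) for 20752 of 21259 probe sets; 826 probe sets naming several genes and 541 naming none entered no gene test. Of 13152 genes, 5088 had several probe sets.

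All tests were limma 3.58.1 (R 4.3.3; lmFit, eBayes) with a mean per group, no covariate, 6 residual and 2.14 prior degrees of freedom, checked on simulated data. Lists got counts and medians, with no test of their own. The gene lists, the members and the rules were chosen with earlier results of these data known. Genes were named as the 15 largest rises and falls and the leading called members of each list, plus members that give a list its name; others were picked after their values were seen. The labels call the arrays biological replicates, each a pool of mice, and 3 arrays a group limit the precision. The 9 arrays had medians of 7.90 and 15.7% to 16% of their probe sets had no signal above zero, and this scaling removes any difference in RNA amount per cell. Alternatives covered the arrays used, the variance prior, probe sets, low values, offsets, scaling and the replicate number. The deviations of same-numbered naive and postmitotic arrays correlated only weakly (0.05, 0.04 and 0.03), so numbers were not taken as pairs. Results for a few genes are not reported here.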

Additional observations from a re-analysis of the deposited data

Results flagged for a closer look

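Probe sets left out of the gene-level test carried differences as well. Of 826 probe sets naming several genes, 74 differed between the 2 populations (8.96%), 53 higher and 21 lower in postmitotic cells. Of 541 naming no gene, 37 were called (6.84%), 16 higher and 21 lower. The 11.8% of genes called came from 1 probe set chosen for each gene, so it is not a like share. With every probe set naming 1 gene tested on its own, 1750 of 21259 were called. The probe sets naming several genes and those naming none were tested by limma in 1 fit over all probe sets except controls. The largest differences among the first kind were those of a probe set annotated to Stmn1 and LOC623112 (1.89, adjusted p = 0.0308), one annotated to Gp49a and Lilrb4 (1.80, 0.00373), one annotated to Mki67 and LOC638774 (1.77, 0.00408) and one annotated to Npm3, Npm3-ps1 and LOC639633 (1.65, 0.0115). The Mki67 probe set read 7.49, 7.69 and 7.54 on the naive, 9.59, 8.78 and 9.65 on the postmitotic and 12.65, 12.37 and 12.55 on the effector arrays. The Npm3 probe set read 8.76, 9.15 and 8.86 on the naive, 8.82, 8.93 and 8.92 on the effector and 9.86, 10.83 and 11.02 on the postmitotic arrays.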

How the results depend on the processing

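The number of genes called moved more than their directions. Against 1556 called (806 higher, 750 lower), the fit of only the 6 arrays compared gave 575 (337 and 238), the fit without both arrays with Y-linked signal 501 (296 and 205) and a variance prior with trend and robust 2351, with 1156 lower. Leaving out 1 array gave 849 to 1461 called, 476 to 801 higher and 367 to 660 lower. The mean of all probe sets of a gene gave 481 lower, and log2 of the signal plus 400 gave 1158. Postmitotic minus effector, 1998 genes were called without both Y-signal arrays, and 2440 to 3482 with 1 array left out. The block on replicate number gave 1130; each postmitotic array deviated most like the naive array of its own number, a hint from the data only, since the correlations were 0.05, 0.04 and 0.03. Centring on genes above zero signal and cyclic loess changed the share of higher calls from 51.8% to 47.6% and 55.6% and the median difference by -0.021 and 0.016. Over 301 named genes and 6014 values, 5064 kept direction and call, 864 lost the call, 21 gained one, 62 changed sign with no call on either side, and 3 reversed, all with the mean of all probe sets: Bach2 (0.05, adjusted p = 0.922), Cct3 (0.03, adjusted p = 0.884) and Mcl1 (-0.39, adjusted p = 0.0267). Of 245 called genes among them, 106 stayed called in every alternative that gave a value and 148 with any 1 array left out. For dim genes the offset sets the size of a difference: that of Ccl5 was 3.99 as deposited and 2.17 with the signal plus 400. Of 1560 list counts under the alternatives, 413 moved by over 1.5 times. The cause of these shifts was not tested, and the smaller fits also hold fewer arrays.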
